A study of Mus with 6 samples.

Results

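Fatty acid beta-oxidation shortens fatty acids by repeated removal of acetyl-CoA, and 33 genes of this pathway were taken by symbol from the 10995 protein-coding genes of a mouse T cell RNA-Seq table. The carnitine shuttle was represented by 3 genes, the enzymes of mitochondria and their electron carriers by 23, and the enzymes and transporters of peroxisomes by 7. All 33 symbols were found once in the table and once in the RefSeq annotation of GRCm38.p6.

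In the carnitine shuttle, long fatty acids are joined to carnitine, carried across the inner mitochondrial membrane and returned to CoA. In the mitochondrial matrix, acyl-CoA dehydrogenases, hydratases, hydroxyacyl-CoA dehydrogenases and thiolases then act in turn, and electrons pass through the electron transfer flavoprotein to the respiratory chain. Peroxisomes run a parallel cycle with their own enzymes, which takes very long and branched chains and begins with an oxidase rather than a dehydrogenase. In T cells, fatty acid oxidation is known mainly from memory and regulatory cells, whereas newly activated cells lean on glycolysis.

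The cells were naive CD4+ T cells from the spleen of WT mice, stimulated for 3 days in culture. The T cell receptor was engaged with anti-CD3 at 5 μg/mL, costimulation came from anti-CD28 at 2 μg/mL, and IL-2 was added at 100 U/mL. One group received an antibody that neutralizes VEGF-B, a growth factor of the VEGF family, and the other received normal IgG, each at 1 μg/mL, with 3 libraries a group. Age and sex of the mice are not given in the labels, and no source used here says whether the libraries of a group came from separate mice or cultures, so the p-values measure the spread between these libraries, which may be technical.

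The deposited values were taken as FPKM, which scale reads for transcript length and for the size of the library. The unit was inferred from the tools named and from values that are not whole numbers, and comparisons of level between genes and the filter on low values rest on it. The number of reads was unknown. The T cell markers Cd3d, Cd3e, Cd3g, Cd247, Cd4 and Lck summed to between 312 and 336 FPKM in the anti–VEGF-B libraries and between 311 and 351 FPKM in the IgG libraries. Within this sum Cd3e fell (11.0 ± 1.69 against 16.0 ± 2.27 FPKM, SD, n = 3, log2 fold change -0.51, limma adjusted p = 0.0197), and Cd3g had a log2 difference of -0.43 (adjusted p = 0.0621), while the more abundant Cd3d, Cd4 and Lck had differences between 0.0041 and 0.10. The CD8 markers Cd8a and Cd8b1 summed to at most 4.69 FPKM, and Cd79b, the B cell marker analysed of 4 listed, was at most 1.34 FPKM. The myeloid markers Lyz2, Csf1r and Cd14 summed to between 3.95 and 5.11 FPKM with anti–VEGF-B and to between 4.60 and 19.8 FPKM with IgG, where replicate 3 alone was above 4.79 FPKM. These were 6 of 7 T cell and 3 of 5 myeloid markers listed, and the part of other cells in the results was not tested. The 33 genes together took up between 0.123% and 0.140% of the summed FPKM of a library.

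The genes of the pathway did not move in a single direction. A mean of at least 1 FPKM over the 6 libraries was reached by 27 of the 33 genes, and these were tested on log2(FPKM + 1) with limma among 8816 genes. At an adjusted p under 0.05, Cpt1a, Acadvl, Hadhb, Acat1, Acot9 and Hsd17b4 fell with anti–VEGF-B, while Hadh, Hsd17b10 and Acot13 rose. The 6 that fell were 22.2% of the 27, against 23.8% of all tested genes, and the 3 that rose were 11.1%, against 4.87% of all tested genes. The share that fell was thus near that of the whole transcriptome. The median log2 fold change was -0.17 over the 27 genes and -0.15 over all tested genes, and 70.4% of the 27 had a value below 0, against 71.2% of all tested genes.

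The typical gene was itself lower with anti–VEGF-B, and the split depended on how libraries were scaled to each other. With quantile normalization 0 of the 27 genes fell in limma, 5 had a lower value at an unadjusted p under 0.05, and 4 rose (Hadh, Hsd17b10, Eci2 and Acot13). On that scale 10.4% of all tested genes fell and 9.98% rose. Centring each library on its median left 0 that fell, 3 lower at an unadjusted p under 0.05, and 6 that rose, with Eci1 and Ech1 added to those 4, where 9.15% of all tested genes fell and 15.5% rose. Scaling to Actb gave 3 that fell and 2 that rose, against 14.8% and 4.14% of all tested genes. Quantile normalization moved the median of all tested genes to 0.0077 and that of the 27 to 0.048. The median log2(FPKM + 1) was 2.72, 2.74 and 2.68 in anti–VEGF-B replicates 1 to 3 and 2.85, 3.01 and 2.89 in those of IgG. IgG replicate 2 was highest, and every IgG library lay above every anti–VEGF-B library. A shift of whole libraries between the groups therefore cannot be told apart from the treatment. The summed FPKM of a library ran from 262045 to 276527 with anti–VEGF-B and from 260058 to 276622 with IgG. As FPKM are scaled to the size of the library, total RNA per cell was not measured. For a given gene, less of its RNA in each cell and fewer cells that express it cannot be told apart in such bulk samples.

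The remaining 6 genes (Cpt2, Acad9, Decr1, Abcd3, Acox3 and Pecr) had a mean under 1 FPKM and were read from a fit over all 10995 genes. Of these Cpt2 alone was called, and it fell. In that fit 20.6% of all genes fell and 3.75% rose. An unadjusted p under 0.05 together with a log2 fold change beyond 0.5 was met in the main fit by Hsd17b4 alone, which is 3.70% of the 27 against 11.3% of all tested genes on the lower side, and by 0 against 1.4% on the higher side. The 3 values of each group lay apart for 9 of the 27 on the lower side, or 33.3% against 38.5% of all tested genes, and for 4 on the higher side, or 14.8% against 10.5%. For single genes the exact two-sided permutation test of 3 libraries against 3 cannot go below p = 0.1, which is its value wherever the groups did not overlap.

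**Figure D1:**
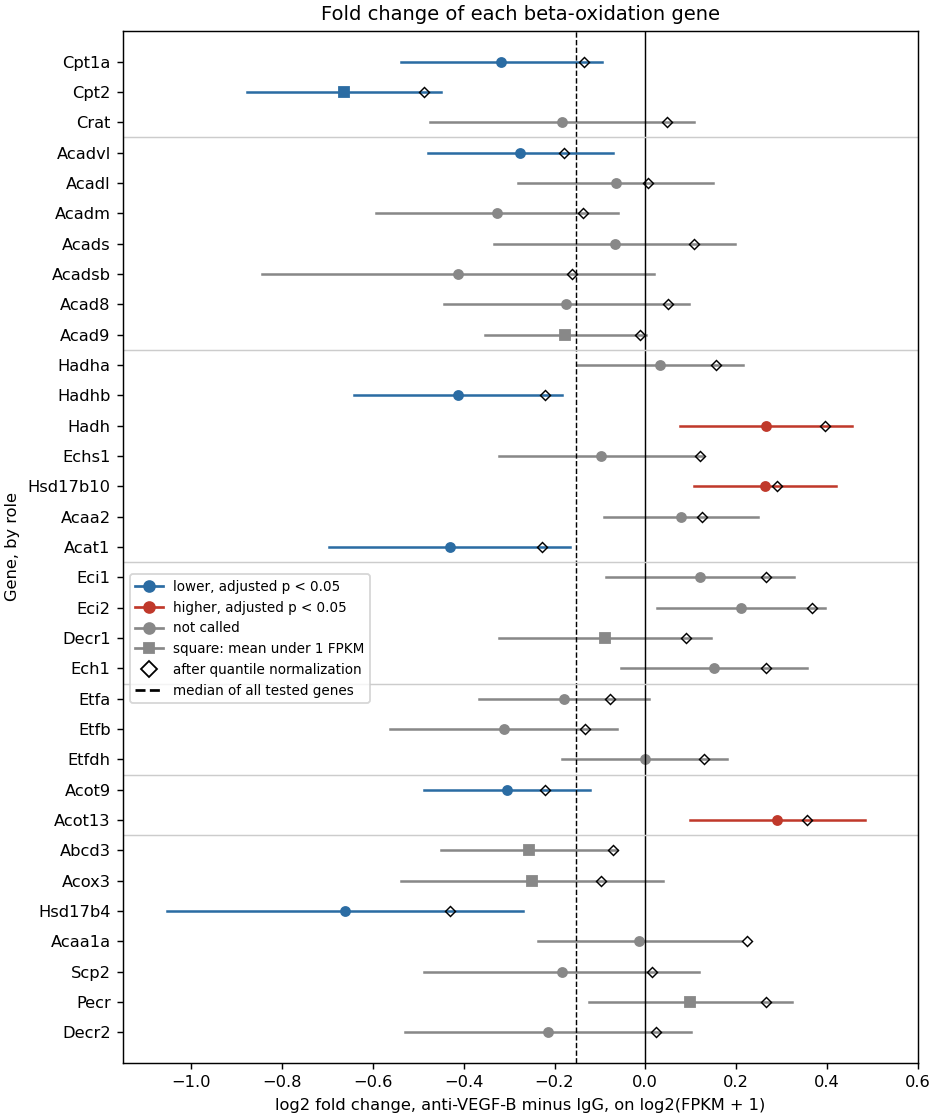
Log2 fold change (anti–VEGF-B minus IgG, on log2(FPKM + 1)) of the 33 genes ordered by role, with 95% confidence intervals from limma as bars, diamonds for the value after quantile normalization and a dashed line at the median of all tested genes, -0.15. Squares are the 6 genes with a mean under 1 FPKM; the diamonds lie to the right of the main values, and the 3 red genes stay above 0 on both scales.

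**Figure D2:**
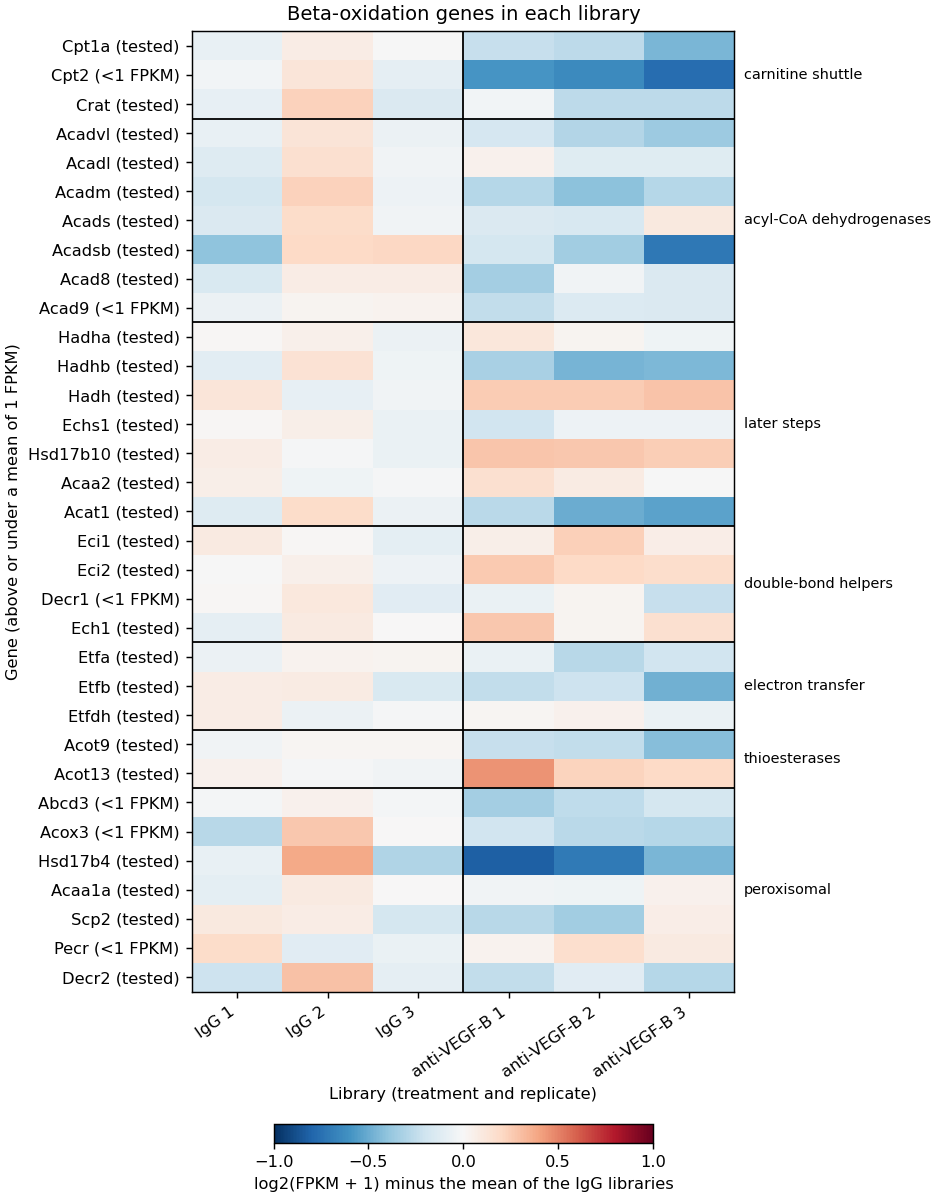
Each row is a gene and each column a library, and the colour gives log2(FPKM + 1) minus the mean of the gene over the 3 IgG libraries. Hadh, Hsd17b10 and Acot13 run opposite to Cpt2, Hadhb and Hsd17b4 across the same libraries.

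In the carnitine shuttle Cpt1a and Cpt2 fell. Cpt1a, which loads long fatty acids onto carnitine at the outer membrane and sets the pace of mitochondrial oxidation, lies on chromosome 19 (3323301 to 3385732, GRCm38). Its level was 6.93, 6.75 and 5.78 FPKM in anti–VEGF-B replicates 1 to 3 and 7.85, 8.79 and 8.29 FPKM in those of IgG. Every anti–VEGF-B library was below every IgG library, with means of 6.48 ± 0.619 and 8.31 ± 0.466 FPKM (SD, n = 3). The log2 fold change of Cpt1a was -0.32 (SE 0.0980, limma adjusted p = 0.0398). After quantile normalization it was -0.14 (adjusted p = 0.255). The adjusted p of Cpt1a ranged from 0.0383 to 0.322 over 15 alternatives and stayed under 0.05 in 6 of them, and it was lost on leaving out any library except IgG replicate 1.

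Cpt2, the inner membrane enzyme that hands the fatty acid back to CoA, lies on chromosome 4 (107903981 to 107923610). It was low in every library, at 0.499, 0.451 and 0.328 FPKM with anti–VEGF-B and 1.21, 1.45 and 1.12 FPKM with IgG. The groups were well apart, and the mean of 0.426 ± 0.0881 FPKM was 0.338 times the IgG mean of 1.26 ± 0.169 FPKM (SD, n = 3). On log2(FPKM + 1) the difference in Cpt2 was -0.66 (SE 0.0938, limma adjusted p = 0.00823), a scale that understates the change of low genes. With a pseudocount of 0.1 it was -1.38. Cpt2 remained lower after quantile normalization (-0.49, adjusted p = 0.0115) and was called in 12 of 13 alternatives, with adjusted p values from 0.00763 to 0.0729. Of the 10 genes that changed, it was the only one of those that fell to pass after quantile normalization and after median centring.

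Crat, which moves acetyl groups between carnitine and CoA, was at 1.44, 1.07 and 1.08 FPKM with anti–VEGF-B and 1.35, 1.91 and 1.25 FPKM with IgG. These ranges overlapped, and the log2 difference of -0.18 had a 95% interval from -0.47 to 0.11 (limma adjusted p = 0.299). The Crat locus overlaps Dolpp1 on the other strand, and whether reads were counted by strand is not given in the sources used here. FPKM per length can be set side by side between genes, and the ratio of Cpt1a to Cpt2 was 13.9, 15.0 and 17.6 with anti–VEGF-B and 6.50, 6.07 and 7.39 with IgG. This ratio was looked at because of the values of its genes and was not tested.

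**Figure D3:**
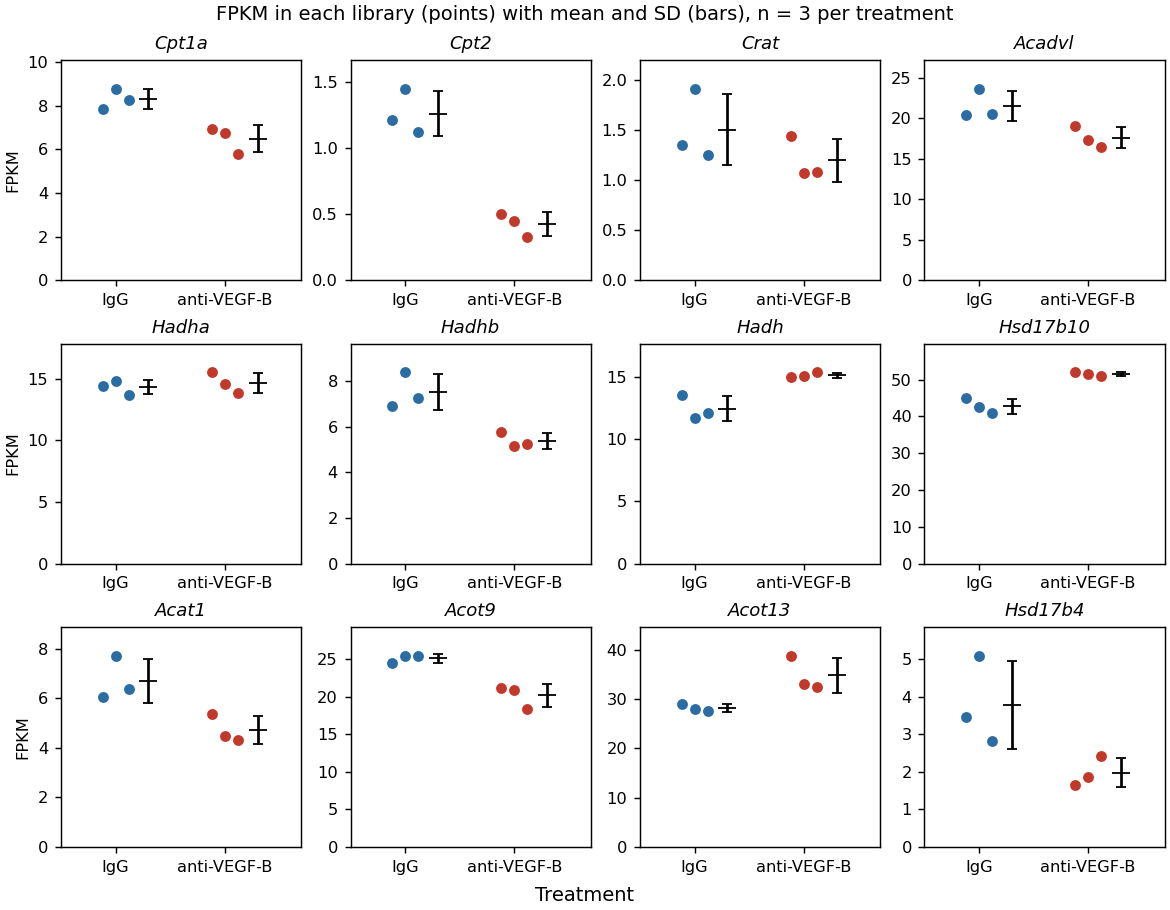
FPKM in each of the 6 libraries (points) with the mean and SD of each treatment (n = 3) for selected genes of the shuttle, of mitochondria and of peroxisomes. Cpt2 falls from a mean of 1.26 to 0.426 FPKM without overlap, while the Hadha values of the groups overlap.

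Among the acyl-CoA dehydrogenases, which make the first double bond and are told apart by the chain length they accept, 1 of 6 tested genes fell (16.7%, against 23.8% of all tested genes) and 0 rose. All 6 log2 differences were below 0, with a median of -0.22, against 71.2% below 0 and a median of -0.15 for all tested genes, and 3 of the 6 were below 0 after quantile normalization. The unadjusted p was under 0.05 for 2 of the 6, both lower. Acadvl, the enzyme for very long chains, lies on chromosome 11 (70010183 to 70015411), where it overlaps Dvl2 on the other strand. It was at 19.0, 17.3 and 16.5 FPKM with anti–VEGF-B and at 20.4, 23.7 and 20.6 FPKM with IgG. The groups did not overlap, and the log2 fold change of Acadvl was -0.28 (SE 0.0907, limma adjusted p = 0.0486). This call was close to the threshold and held in 1 of 15 alternatives, over which the adjusted p ran from 0.0496 to 0.497, and leaving out any 1 library ended it.

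Acadl, which takes long chains, was the most abundant dehydrogenase at 26.2, 23.3 and 23.3 FPKM with anti–VEGF-B and 23.2, 28.6 and 24.7 FPKM with IgG. The ranges overlapped and the log2 difference was -0.065 (95% interval -0.28 to 0.15, limma adjusted p = 0.624). Acadm, the medium-chain enzyme whose deficiency is a common disorder of fatty acid oxidation, had all its anti–VEGF-B values below its IgG values (5.80 ± 0.346 against 7.59 ± 1.27 FPKM, SD, n = 3), but its adjusted p in limma was 0.0653. Acads, for short chains, Acadsb and Acad8, which act on intermediates of branched amino acids, and Acad9, which also helps to assemble complex I, had log2 differences between -0.41 and -0.067 and were not called.

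The later steps of the mitochondrial cycle went both ways, with 2 of 7 genes lower, 2 higher (28.6% each, against 23.8% and 4.87% of all tested genes) and a median log2 fold change of 0.033. Hadha and Hadhb encode the α and β subunits of the trifunctional protein, which carries out the last steps for long chains, and they sit head to head on chromosome 5, 85 bases apart (Hadha 30118304 to 30155162 on the minus strand, Hadhb 30155248 to 30184593 on the plus strand). Hadha was at 15.5, 14.6 and 13.9 FPKM with anti–VEGF-B and 14.4, 14.8 and 13.7 FPKM with IgG. The ranges overlapped, with a log2 difference of 0.033 (95% interval -0.15 to 0.22, limma adjusted p = 0.778). Hadhb was at 5.78, 5.14 and 5.24 FPKM with anti–VEGF-B and 6.91, 8.40 and 7.25 FPKM with IgG. Every anti–VEGF-B library was lower, and the log2 fold change of Hadhb was -0.41 (SE 0.101, limma adjusted p = 0.0189).

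The Hadhb call held in 10 of 15 alternatives, with adjusted p values from 0.0178 to 0.0865. It was lost with quantile normalization (-0.22, adjusted p = 0.0848), with median centring (-0.21, adjusted p = 0.0865) and without moderation of the variance. It was also lost without anti–VEGF-B replicate 2 (0.0556) or 3 (0.0677). Within each library the ratio of Hadha to Hadhb does not change when all genes are multiplied by the same factor, but can change with quantile normalization. As deposited it was 2.68, 2.83 and 2.65 with anti–VEGF-B and 2.09, 1.76 and 1.89 with IgG, so that the groups did not overlap (2.72 ± 0.0987 against 1.91 ± 0.163, SD, n = 3). The pair was chosen after its values were seen, and the difference was not tested.

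**Figure D4:**
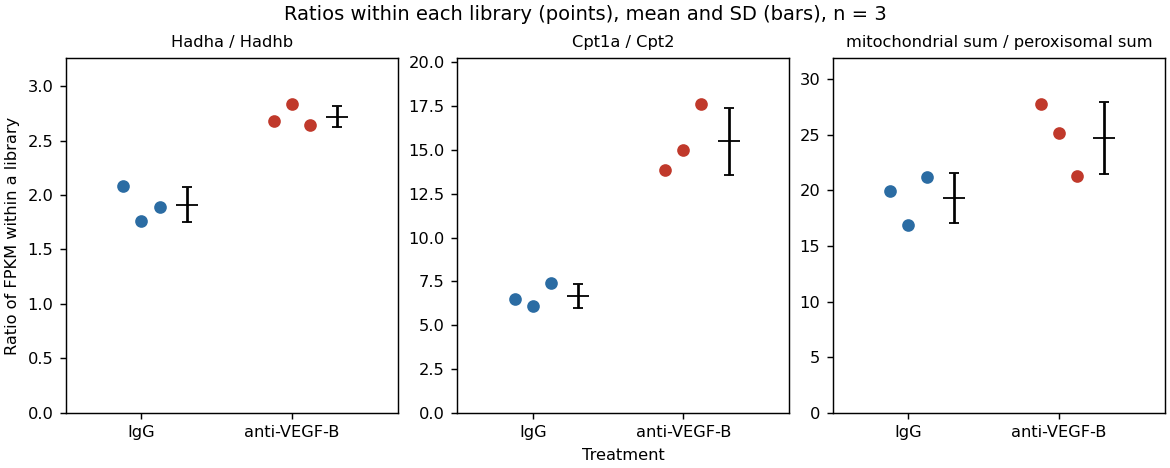
Ratio of FPKM within each library for Hadha to Hadhb, Cpt1a to Cpt2 and the mitochondrial to the peroxisomal sum, with points for the 3 libraries of each treatment and the mean and SD beside them. The Hadha to Hadhb ratio is 2.65 or more with anti–VEGF-B and 2.09 or less with IgG, while the last ratio is separated only narrowly.

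Hadh and Hsd17b10 both encode hydroxyacyl-CoA dehydrogenases that work on shorter chains, and both rose. Hadh (chromosome 3, 131233419 to 131272101) was at 15.0, 15.0 and 15.4 FPKM with anti–VEGF-B and 13.6, 11.7 and 12.1 FPKM with IgG. The rise of 0.27 on the log2 scale (SE 0.0841, limma adjusted p = 0.0424) was 0.40 after quantile normalization, and over 15 alternatives the adjusted p of Hadh ran from 0.0145 to 0.127. Hadh was called in 6 of these, and leaving out any library except IgG replicate 1 ended the call.

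Hsd17b10, which also has a part in mitochondrial tRNA processing, lies on the X chromosome (152001845 to 152004442) and had the highest mean FPKM of the 33 genes. It was at 52.0, 51.6 and 51.0 FPKM with anti–VEGF-B and 45.0, 42.5 and 40.9 FPKM with IgG. The anti–VEGF-B libraries lay close together and above all IgG libraries, with a log2 fold change of 0.26 (SE 0.0696, limma adjusted p = 0.0239). It was also called after quantile normalization, and in 9 of 15 alternatives in all (adjusted p from 0.00911 to 0.0769). As for Hadh, the Hsd17b10 call was lost without any library except IgG replicate 1.

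Acat1 and Acaa2 are further thiolases. Acat1, which splits acetoacetyl-CoA and serves ketone and isoleucine breakdown (chromosome 9, 53580522 to 53610382), was at 5.37, 4.46 and 4.31 FPKM with anti–VEGF-B and 6.04, 7.72 and 6.38 FPKM with IgG. Its groups did not overlap, and it fell by 0.43 on the log2 scale (SE 0.118, limma adjusted p = 0.0267). The Acat1 call was lost after quantile normalization (-0.23, adjusted p = 0.115), which was the highest of 15 alternatives, of which the lowest was 0.0256. It was also lost with median centring (-0.23, adjusted p = 0.105), without moderation of the variance, and without anti–VEGF-B replicate 2 or 3 or IgG replicate 2 or 3. Acaa2, the thiolase for medium chains, was at 40.3, 38.1 and 35.8 FPKM with anti–VEGF-B and 37.5, 34.8 and 35.7 FPKM with IgG. These values overlapped, with a log2 difference of 0.079 (95% interval -0.091 to 0.25, limma adjusted p = 0.445). Echs1, the short-chain hydratase, was at 1.32 FPKM on average with anti–VEGF-B and 1.48 FPKM with IgG and was not called, and it overlaps Paox on the other strand.

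Unsaturated fatty acids need helpers that shift or reduce their double bonds. The isomerases Eci1, Eci2 and Ech1, of which the last pair also occurs in peroxisomes, all had values above 0 (log2 differences 0.12, 0.21 and 0.15), and 0 of these 3 were called in limma, with 1 of them at an unadjusted p under 0.05. Eci2 was higher in every anti–VEGF-B library and missed the threshold at an adjusted p of 0.0799. It passed after quantile normalization (0.37, adjusted p = 0.0155), and the range over 15 alternatives was from 0.00952 to 0.198. Decr1, the mitochondrial dienoyl-CoA reductase, had a mean under 1 FPKM and was not called.

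Electrons from the dehydrogenases pass to the electron transfer flavoprotein, made of Etfa and Etfb, and then to Etfdh. Of these 3 genes 0 were called in limma, with 1 at an unadjusted p under 0.05. Etfa was at 19.8, 16.9 and 18.0 FPKM with anti–VEGF-B and 19.9, 21.3 and 21.1 FPKM with IgG. The groups did not overlap, although the highest anti–VEGF-B value nearly met the lowest IgG value, and the log2 difference was -0.18 (95% interval -0.37 to 0.0084, limma adjusted p = 0.130). Etfb was also lower in every anti–VEGF-B library (-0.31, adjusted p = 0.0617), whereas Etfdh had a difference of -0.0015 with an interval from -0.18 to 0.18. The Etfdh locus overlaps 4930579G24Rik on the other strand.

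The mitochondrial thioesterases, which release fatty acids from CoA, changed in opposite directions. Acot9 (X chromosome, 155262443 to 155297654) was at 21.2, 20.9 and 18.4 FPKM with anti–VEGF-B and 24.4, 25.4 and 25.4 FPKM with IgG. Acot13 (chromosome 13, 24817948 to 24831540) was at 38.8, 33.1 and 32.5 FPKM with anti–VEGF-B and 29.1, 27.9 and 27.5 FPKM with IgG. Neither gene had overlapping groups. Acot9 fell by 0.30 on the log2 scale (SE 0.0811, limma adjusted p = 0.0246), and Acot13 rose by 0.29 (SE 0.0858, limma adjusted p = 0.0344).

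With quantile normalization the rise of Acot13 was called (0.36, adjusted p = 0.0223) and the fall of Acot9 was not (-0.22, adjusted p = 0.0636). Each of them was called in 8 of 15 alternatives, with adjusted p values from 0.0248 to 0.363 for Acot9 and from 0.0105 to 0.102 for Acot13. Acot9 was lost without anti–VEGF-B replicate 3 or IgG replicate 2 or 3, and Acot13 without any library except IgG replicate 1. Acot9 has the close copy Acot10, so that reads of the pair may have been shared.

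The peroxisomal genes were expressed at lower levels than most of the mitochondrial ones, with a median of their mean levels of 2.52 FPKM against 11.0 FPKM. Of the 4 tested, 1 fell (25%, against 23.8% of all tested genes) and 0 rose, and 0 of the 3 under the filter were called. At an unadjusted p under 0.05 the tested count was again 1, Hsd17b4. Hsd17b4 encodes the bifunctional enzyme that hydrates and oxidizes the chain in peroxisomes. It was at 1.66, 1.87 and 2.41 FPKM with anti–VEGF-B and 3.45, 5.09 and 2.81 FPKM with IgG. All anti–VEGF-B values were below all IgG values, and the mean was 0.524 times that of IgG (1.98 ± 0.386 against 3.78 ± 1.17 FPKM, SD, n = 3).

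The log2 fold change of Hsd17b4 was -0.66 (SE 0.174, limma adjusted p = 0.0236). It was called in 9 of 14 alternatives (adjusted p from 0.0190 to 0.126). The call was lost after quantile normalization (-0.43, adjusted p = 0.0840), with median centring (-0.46, adjusted p = 0.0572), without moderation of the variance, and without anti–VEGF-B replicate 1 or 2. IgG replicate 2 held its highest value, and without that library the log2 fold change was -0.47 (adjusted p = 0.0497).

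Acox3, an oxidase that starts the peroxisomal cycle on branched chains, was at 0.260, 0.191 and 0.176 FPKM with anti–VEGF-B and 0.186, 0.735 and 0.441 FPKM with IgG. Its groups overlapped through IgG replicate 1, and the log2 difference of -0.25 had an interval from -0.54 to 0.039 (limma adjusted p = 0.169). Abcd3, a transporter of acyl-CoA into peroxisomes, was below 1 FPKM in every anti–VEGF-B library and above it in every IgG library, and was not called (-0.26, adjusted p = 0.0564). The thiolases Acaa1a and Scp2 and the reductases Pecr and Decr2 had log2 differences between -0.21 and 0.099 and were not called. Acaa1a has the close copy Acaa1b and overlaps Myd88 on the other strand, so that its value is uncertain.

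Set side by side, the compartments held different sums. The mitochondrial genes summed to 340.0, 319.8 and 312.1 FPKM with anti–VEGF-B and 318.6, 331.7 and 313.0 FPKM with IgG, which overlapped, and the ratio of the means was 1.01. The carnitine shuttle summed to 8.87, 8.27 and 7.18 FPKM with anti–VEGF-B and 10.4, 12.1 and 10.7 FPKM with IgG, a ratio of 0.732, with Cpt1a as its most abundant gene. The peroxisomal genes summed to 12.3, 12.7 and 14.7 FPKM with anti–VEGF-B and 16.0, 19.7 and 14.7 FPKM with IgG, a ratio of 0.787 in which replicate 3 was nearly equal in both groups. The shuttle sum did not overlap between groups, and the peroxisomal sum was apart by less than 1 FPKM. Of the mean peroxisomal sums of 13.2 FPKM with anti–VEGF-B and 16.8 FPKM with IgG, Hsd17b4 made up 1.98 and 3.78 FPKM.

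Median log2 fold changes were -0.25 for the 2 tested shuttle genes, -0.067 for the 21 mitochondrial and -0.20 for the 4 peroxisomal genes. All 3 compartments shifted upward with quantile normalization, to -0.044, 0.11 and 0.020. With so few shuttle and peroxisomal genes, and with all 3 called rises among the mitochondrial genes, the medians are given as a description. No test of one compartment against another was made.

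With the values as deposited, the direction went along with the level. Of the 12 genes at 10 FPKM or more, 2 fell, 3 rose and 7 had a value above 0, whereas of the 15 tested genes under 10 FPKM, 4 fell, 0 rose and 1 had a value above 0. Among all tested genes, those at 10 FPKM or more had a median log2 fold change of -0.045, with 18.0% lower and 9.46% higher. Those under 10 FPKM had a median of -0.21, with 27.2% lower and 2.23% higher. Values below 0 made up 41.7% of the 12 genes, against 57.0% of all genes in that range. Under 10 FPKM they made up 93.3% of the 15, against 79.3%. After quantile normalization 9 of the 12 genes had a value above 0, with 0 called lower and 3 higher. Of the 15 under 10 FPKM, 8 were above 0 and 7 below on that scale, with 0 called lower and 1 higher. The medians of all tested genes were then 0.020 at 10 FPKM or more and -1.2e-05 under 10 FPKM. The peroxisomal genes were all under 10 FPKM. Across the 27 genes the level and the log2 fold change as deposited had a Spearman coefficient of 0.54, and across the 8816 genes of 0.28. Both were over genes of the same 6 libraries, and the part of level in the difference between compartments was not tested.

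**Figure D5:**
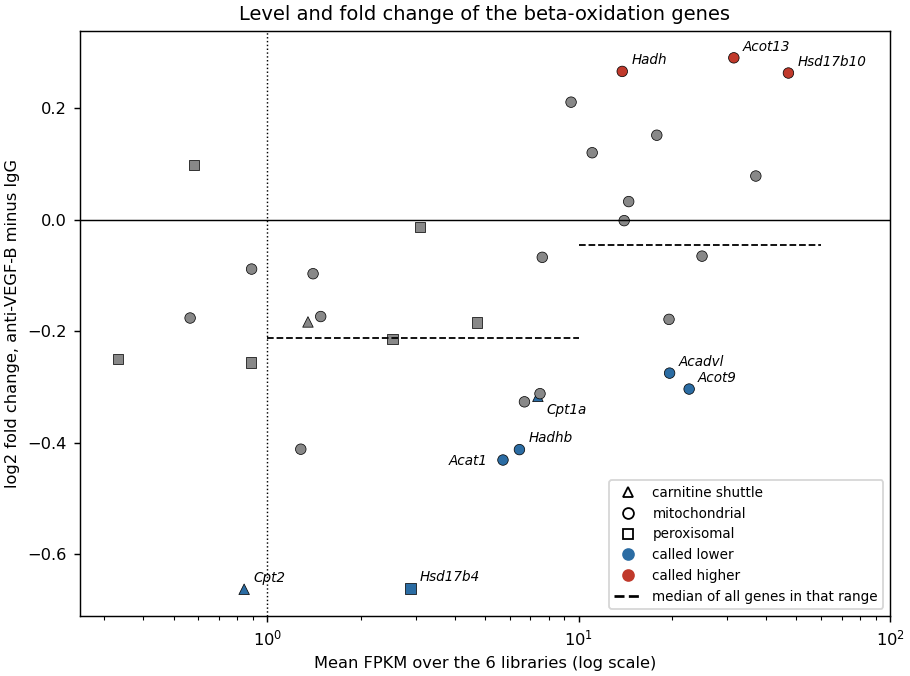
Mean FPKM over the 6 libraries (log axis) against the log2 fold change of the 33 genes, with shapes for the compartment, colours for the calls, a dotted line at 1 FPKM and dashed lines at the median of all tested genes under and over 10 FPKM, -0.21 and -0.045. The 3 genes that rose lie at the upper right, and Cpt2 and Hsd17b4 at the lower left.

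A further 36 genes of the pathway were listed from general knowledge, of which 27 were measured and 17 tested. Of the 17, 4 fell (23.5%, against 23.8% of all tested genes) and 0 rose in limma, with 0 higher at an unadjusted p under 0.05. Slc22a5, the carnitine importer of the cell membrane, fell from 3.65 ± 0.213 to 2.56 ± 0.118 FPKM (SD, n = 3, log2 fold change -0.39, limma adjusted p = 0.0197). Crot, the carnitine octanoyltransferase of peroxisomes, fell from 3.84 ± 0.725 to 2.24 ± 0.522 FPKM (-0.58, adjusted p = 0.0214). Gcdh, which breaks down glutaryl-CoA, fell from 4.17 ± 0.823 to 2.85 ± 0.172 FPKM (-0.41, adjusted p = 0.0380). Ehhadh, a second bifunctional enzyme of peroxisomes, was under the filter and fell from 1.07 ± 0.0782 to 0.575 ± 0.0381 FPKM (-0.39, adjusted p = 0.0159 in the fit over all genes).

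After quantile normalization Slc22a5, Crot, Gcdh and Ehhadh were not called, with adjusted p values from 0.0787 to 0.224. With that scaling 0 of the 17 fell, 1 being lower at an unadjusted p under 0.05, and Nudt19, a hydrolase of CoA in peroxisomes, rose (0.31, adjusted p = 0.0412). Of all tested genes, 10.4% fell and 9.98% rose on that scale. Cpt1b, a further carnitine palmitoyltransferase known from muscle, was under the filter, at 0.565, 1.01 and 0.765 FPKM with anti–VEGF-B and 0.529, 0.594 and 0.381 FPKM with IgG. Its ranges overlapped and its log2 difference was 0.24 (adjusted p = 0.131), but it was called higher after quantile normalization (0.42, adjusted p = 0.0342) and median centring (adjusted p = 0.0195), opposite in sign to Cpt1a and Cpt2. Slc25a20, the translocase that completes the carnitine shuttle, had a log2 difference of -0.13 (adjusted p = 0.311). Cpt1b and Slc25a20 are given because of their roles.

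Among 15 regulators of the pathway, 13 were tested, of which 2 fell (15.4%, against 23.8% of all tested genes) and 0 rose. At an unadjusted p under 0.05, 4 were lower, with Esrra (-0.40) and Rxra (-0.36) among them, and 2 were higher. Both genes that fell at the adjusted threshold were subunits of AMP-activated protein kinase, which relieves the block that malonyl-CoA places on the shuttle. Prkaa1, a catalytic subunit, was at 3.19, 2.97 and 3.03 FPKM with anti–VEGF-B and 4.53, 5.04 and 4.26 FPKM with IgG (log2 fold change -0.46, limma adjusted p = 0.0128). Prkag1, a regulatory subunit, was at 14.5, 15.2 and 12.4 FPKM with anti–VEGF-B and 16.7, 21.9 and 20.9 FPKM with IgG (-0.47, adjusted p = 0.0200). Neither gene had overlapping groups, and after quantile normalization Prkag1 was called (adjusted p = 0.0419) and Prkaa1 was not (0.0673). The balance changed with the scaling, for the regulators as for all tested genes. Of all tested genes, quantile normalization gave 10.4% lower and 9.98% higher, and median centring 9.15% and 15.5%. Each of these scalings gave 1 regulator lower and 2 higher, of 13 tested. The lower one was Prkag1 with quantile normalization but Prkaa1 with median centring (limma adjusted p = 0.0481, against 0.0767 for Prkag1). The 2 higher were the corepressor Nrip1 (0.38, adjusted p = 0.0343 with quantile normalization) and Nrf1, an activator of nuclear genes for mitochondrial proteins (0.47, adjusted p = 0.0154), whose differences as deposited were 0.25 and 0.26 (adjusted p = 0.104 and 0.0652). The nuclear receptor Ppard had a log2 difference of 0.0019 (adjusted p = 0.991).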

How the data were processed

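The authors aligned stranded libraries to the mouse genome (GRCm38), quantified genes with StringTie and Ballgown and deposited values taken here as FPKM, with no step between libraries stated. The table is named as raw data, but its values are not whole numbers, so that no count model was run. Depth is unknown, low values gave no step worth 1 read, and the spread between libraries is the only error. Genes averaging 1 FPKM or more (8816) entered limma 3.58.1 in R 4.3.3 as log2(FPKM + 1) (empirical Bayes with trend, no covariate, Benjamini-Hochberg over all tested genes, two-sided), after tests on simulated data. A fold change on this scale understates that of low genes. Values in every library are given for called genes, the shuttle, the entry steps of each compartment and the 3 uncalled genes of highest level, and genes such as Acadm, Eci2, Etfb and Abcd3 were named after their values were seen. The genes and lists were chosen with earlier results of these data known. The alternatives changed scaling (quantile, median, Actb), filter, pseudocount, moderation, replicate block and libraries. Promoter and protein sequences were not analysed here, and some tested genes are not reported here.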

Additional observations from a re-analysis of the deposited data

How the results depend on the processing

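All 10 genes that changed kept their direction under every alternative run. The count of 9 called genes was 4 with quantile normalization, 5 with scaling to Actb (3 lower, 2 higher) and 0 in limma without moderation of the variance, where 10 had an unadjusted p under 0.05 and 12 of all tested genes were called. Leaving out a library gave between 1 and 10 called genes. Of these, dropping anti–VEGF-B replicate 1 left 3, replicate 2 left 1 and replicate 3 left 1, and dropping IgG replicate 2 or 3 left 2. The count past an unadjusted p of 0.05 and a log2 fold change of 0.5 was 1, and became 0 with quantile normalization, median centring or a mean of at least 5 FPKM and 2 with no filter, between 0 and 3 on leaving out a library. The median log2 fold change of -0.17 became 0.048 with quantile normalization, 0.027 with median centring and -0.065 at a mean of at least 5 FPKM, and ran from -0.15 to -0.067 on leaving out a library, the last without IgG replicate 2. The 4 further pathway genes became 1 with quantile normalization, 2 with median centring, 0 at a mean of at least 5 FPKM and 0 without moderation (6 at an unadjusted p under 0.05), and between 0 and 5 on leaving out a library, with 0 without anti–VEGF-B replicate 2 or 3 and 1 without IgG replicate 2. The 2 regulators, both lower, became 3 (1 lower, 2 higher) with quantile normalization and with median centring, 1 at a mean of at least 5 FPKM and 0 without moderation (3 at an unadjusted p under 0.05), and between 1 and 3 on leaving out a library, with 1 on dropping replicate 3 of anti–VEGF-B or replicate 2 or 3 of IgG. The higher filter tests fewer genes, and leaving out a library leaves fewer samples; otherwise the cause was not tested. With the replicate number as a block 8 genes were called (6 lower, 2 higher), and 2578 of all genes against 2528; same-numbered libraries correlated at -0.030, 0.11 and 0.089 in their deviations, not every library correlated best with its own number, and nothing else pairs them. FPKM without counts limit what can be said of genes under 1 FPKM such as Cpt2.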
